A study of Mus musculus with 15 samples.

Results

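The data cover 9 genes that take up inorganic sulfate, activate it and attach it to small molecules in the mouse colon: Slc13a1, Slc26a2, Papss1, Papss2, Sult1a1, Sult1b1, Sult1c2, Sult1d1 and Sult2b1. They were picked by symbol, with the difference between heme-fed and control mice already known. All probe sets whose array annotation gives 1 of these symbols alone were taken, 16 in all, out of 34958 probe sets with a single symbol that stand for 18194 genes. RNA came from scrapings of the opened colon, taken from male mice of C57BL/6, an inbred laboratory strain, at 11 weeks of age. All mice ate a Western-type diet rich in fat, at 40% of its energy, and poor in calcium for 14 days. The control group (6 mice) had this diet without heme, and the heme group (9 mice) had it with heme, the iron porphyrin of red meat, at 0.5 umol per g. Each mouse was run on an array of its own, so the replicates are biological, and control replicate 5 was not analysed here.

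Sulfation needs sulfate inside the cell. Slc13a1 is a sodium-coupled sulfate carrier of the apical membrane of intestine and kidney, and Slc26a2 is an anion exchanger that carries sulfate into many cell types, the colon epithelium among them. The synthases Papss1 and Papss2 turn sulfate and ATP into PAPS, the activated sulfate donor. The cytosolic sulfotransferases (Sult genes) move the sulfate of PAPS onto phenols, hormones, drugs and sterols, which makes these more soluble in water, and the gut wall is a known site of this conjugation.

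The values are log2 expression per probe set. Array medians ran from 3.11 to 3.24, and values up to 4.32 (a signal of 20) were treated as background, called the floor here. Levels of different genes are not set against each other, since probes differ in brightness. Markers of intestinal epithelium were high on all arrays, with a mean of 11.48 to 11.79 over 6 identity genes (Cdx1, Cdx2, Vil1, Epcam, Cdh17 and Hnf4a). Control mice 2 and 4 and heme mouse 6 stood apart. Control mouse 2 had the highest smooth muscle mean (9.76, against 6.08 to 7.63 in the other controls) and the highest fibroblast mean (10.03). Control mouse 4 had a mean of 3.19 over distal colon Hox genes, against 6.81 to 8.94 in the other controls. Heme mouse 6 had the interferon-induced gene Gbp2 at 11.28, against 4.68 to 5.64 in the other 8 heme mice. Markers are counted here as higher or lower with heme at a limma adjusted p under 0.05. By that measure 27.2% of all 9257 tested genes were higher and 26.4% lower, 53.6% in all. The 4 tested smooth muscle markers were all lower with heme, with a mean of 6.08 to 9.76 in control and 4.88 to 6.62 in heme mice, and Lmod1 and Synpo2 lay under the floor on all arrays. Of 7 enteroendocrine markers 4 were lower, with a mean of 8.76 to 9.79 in control and 8.21 to 8.70 in heme mice. Of 7 goblet cell markers 4 were lower too, with a mean of 13.783 to 14.03 in control and 13.63 to 13.781 in heme mice. Among 10 surface colonocyte markers 3 were higher and 4 lower, with a mean of 12.70 to 12.89 in control and 12.80 to 13.03 in heme mice. Crypt and dividing cell markers were higher for 4 of 7 and lower for 2, with a mean of 8.00 to 8.39 and 8.23 to 8.57. Small intestine enterocyte markers were higher for 2 of 3 tested and lower for 0, with a mean of 9.26 to 10.52 and 9.77 to 11.00. The part of the endocrine, goblet and these other epithelial cells in the results below was not tested. Fewer cells of a type and less RNA per cell cannot be told apart in such scrapings.

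Upstream sequence was matched for 7 of the 9 genes in RefSeq (GRCm38.p6), with 11 start sites. Start sites on 1 chromosome were left out beforehand, also from the counts over all windows. It is shown for 3 sulfotransferases of the Sult1 family: Sult1a1 and Sult1c2, which were lower in heme mice and moved together between mice, and Sult1d1, whose groups overlapped. Each line gives the 250 bases before the start site, 5′ to 3′ on the strand of the gene. Sult1a1 lies at chr7:126676419-126676668, Sult1c2 at chr17:53845959-53846208 and Sult1d1 at chr5:87569007-87569256, all 3 on the minus strand. Capitals mark matches to GTTAAT on either strand, the core of sites for HNF1 factors of gut and liver.
Sult1a1: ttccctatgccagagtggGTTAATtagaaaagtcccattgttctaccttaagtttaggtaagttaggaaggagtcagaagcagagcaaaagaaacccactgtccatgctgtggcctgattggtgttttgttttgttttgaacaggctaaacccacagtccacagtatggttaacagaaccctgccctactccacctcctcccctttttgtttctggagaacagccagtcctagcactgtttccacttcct
Sult1c2: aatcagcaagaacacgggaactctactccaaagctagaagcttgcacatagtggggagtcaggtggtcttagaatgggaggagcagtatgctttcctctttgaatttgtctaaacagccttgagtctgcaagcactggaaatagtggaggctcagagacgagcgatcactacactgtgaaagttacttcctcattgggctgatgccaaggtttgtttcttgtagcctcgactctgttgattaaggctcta
Sult1d1: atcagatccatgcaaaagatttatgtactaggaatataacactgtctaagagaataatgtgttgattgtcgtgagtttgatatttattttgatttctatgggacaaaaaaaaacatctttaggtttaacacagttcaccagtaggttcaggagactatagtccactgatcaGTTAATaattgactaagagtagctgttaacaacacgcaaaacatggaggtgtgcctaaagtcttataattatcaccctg
Sult1a1 and Sult1d1 each held 1 match to GTTAAT and Sult1c2 held 0, while 6.43% of 32851 mouse promoter windows of this length have one. Matches were also sought on both strands to AGGTCA, a nuclear receptor half-site (14.0% of windows), to TGACNNNGC, the core of antioxidant response elements (10.2%), and to TATAAA (12.4%), and these 3 windows had none. A match is a description of letters, and a window without one shows only that these letters are not there. The Sult1a1 window held 0 CG dinucleotides, that of Sult1c2 4 and that of Sult1d1 2, against a median of 6 over all windows. One window each of the synthases was richer, with 20 for Papss1 and 24 for Papss2.

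Of the sulfate carriers, Slc13a1 was far lower in heme mice and Slc26a2 was not. Slc13a1 (probe set 1431379_a_at) ran from 8.50 through a median of 9.99 to 10.69 in control mice. In heme mice it ran from 4.59 through 5.40 to 5.90. Every heme mouse lay under every control, with 2.60 log2 units between the nearest mice. The means were 9.82 ± 0.84 (SD, n = 6) and 5.34 ± 0.44 (n = 9), a difference of -4.48 ± 0.30 (heme minus control, log2, SE), or 22.4-fold lower. This was the second largest fall (rank 2) among the 9257 tested genes. The gene was picked with this difference known, so no p-value is given for it.

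The other Slc13a1 probe set (1430804_at) gave 5.79 to 8.99 in control mice with a median of 7.87. In heme mice it gave 2.92 to 3.42 with a median of 3.18, under the floor in all 9. Against the floor it was at least 9.48-fold lower. Both probe sets placed control mouse 4 highest (10.69 and 8.99) and control mouse 2 lowest (8.50 and 5.79) of the controls. Its control SD of 0.84 compares with a median of 0.18 over all tested genes, so the sulfate carrier varied widely between mice on the same diet. With the smooth muscle mean as a covariate the Slc13a1 difference was -5.12, with the distal Hox mean -4.29, and without control mice 2 and 4 and heme mouse 6 it was -4.55.

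Slc26a2 (1427195_at) ran from 12.35 through 12.75 to 12.86 in control mice and from 12.53 through 12.66 to 12.94 in heme mice. The groups overlapped, and the difference was -0.01 ± 0.08 (log2, SE). Control mouse 4 was the lowest of all 15, the reverse of its place for Slc13a1, and without it the Slc26a2 difference was -0.08. The probe set 1443882_at differed by 0.04 ± 0.09 and 1421145_at by 0.23 ± 0.20. In the last, heme mouse 9 stood at 12.06 while the other 8 heme mice lay between 10.31 and 10.77. On 1427195_at the same mouse lay mid-range at 12.66, and on 1443882_at it was the highest heme mouse at 12.55, within the range of the controls.

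Both PAPS synthases were slightly lower in heme mice. Papss1 (1415890_at) ran from 10.61 through 10.70 to 10.75 in control and from 10.29 through 10.36 to 10.51 in heme mice. The groups did not overlap, but the nearest mice were only 0.09 apart. The Papss1 difference was -0.30 ± 0.05 (log2, SE), or 1.23-fold. Papss2 (1434510_at) ran from 12.21 through 12.35 to 12.62 in control and from 11.88 through 11.998 to 12.20 in heme mice. Here the nearest mice of the groups were 0.01 apart. The Papss2 difference was -0.36 ± 0.07, or 1.28-fold.

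The other Papss2 probe sets over the floor, 1421987_at and 1421989_s_at, differed by -0.23 ± 0.10 and -0.25 ± 0.11, with 6 and 5 of 9 heme mice below all controls, and neither was called when every probe set was tested on its own. A last one, 1421988_at, lay under the floor on all 15 arrays, at 2.12 to 2.72. Averaging the Papss2 probe sets with it gave -0.21. The size of the Papss2 difference thus depended on the probe set, and its sign was the same on the 3 that lay over the floor. Control mouse 4 was again the highest control on each of these 3 probe sets, and the Papss2 difference was -0.31 without it and -0.46 with the smooth muscle covariate.

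**Figure D1:**
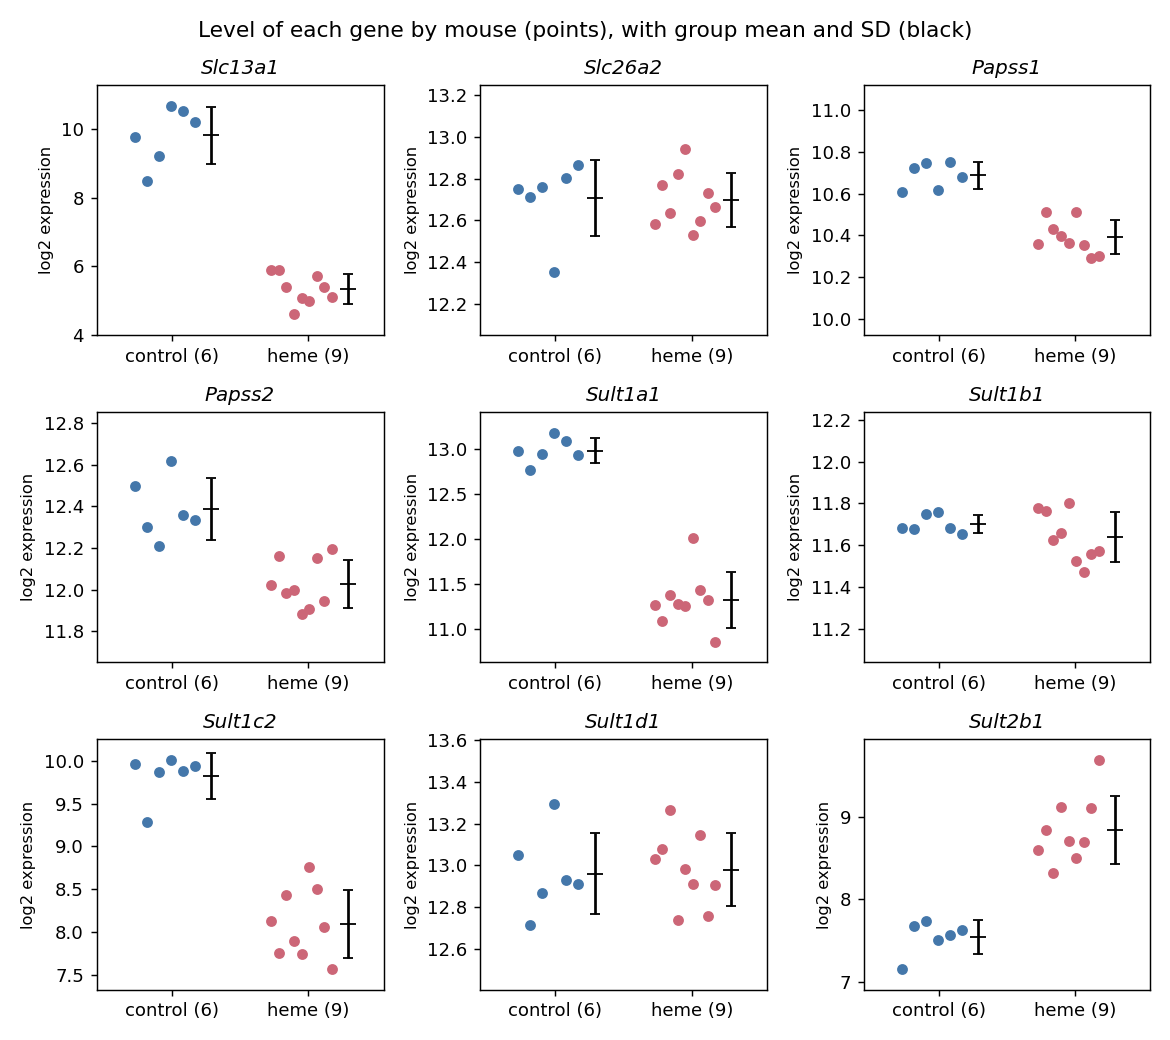
Log2 expression of each gene's brightest probe set in each mouse (points, y axes differ between panels and span at least 1.2 log2 units), with the mean and SD of each group in black. Slc13a1, Sult1a1 and Sult1c2 sit lower and Sult2b1 higher in all 9 heme mice, while Slc26a2, Sult1b1 and Sult1d1 overlap.

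The sulfotransferases split into members that were lower with heme, overlapping and higher. Sult1a1, the main phenol sulfotransferase, ran from 12.77 through 12.96 to 13.18 in control and from 10.86 through 11.28 to 12.01 in heme mice (1427345_a_at). Every heme mouse lay under every control, by at least 0.76. The Sult1a1 difference was -1.66 ± 0.13 (log2, SE), or 3.16-fold lower. Heme mouse 6 was the heme mouse nearest to the controls, and without it the difference was -1.75.

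Sult1c2, which acts on phenols and arylamines, ran from 9.28 through 9.91 to 10.01 in control and from 7.57 through 8.05 to 8.76 in heme mice (1449409_at). Again no heme mouse reached the controls, with 0.52 between the nearest. The Sult1c2 difference was -1.73 ± 0.17, or 3.32-fold lower. Control mouse 2 was the lowest control and the other 5 lay between 9.87 and 10.01. Heme mouse 6 was once more the highest heme mouse, and heme mouse 9 the lowest, for both Sult1a1 and Sult1c2. Without control mice 2 and 4 and heme mouse 6 the differences were -1.75 for Sult1a1 and -1.90 for Sult1c2.

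For Sult1b1 and Sult1d1 the groups overlapped. Sult1b1, which sulfates phenols and thyroid hormones, ran from 11.65 through 11.68 to 11.76 in control and from 11.47 through 11.62 to 11.80 in heme mice (1418940_at). Its groups overlapped, 5 heme mice lay under and 3 above all controls, and the difference was -0.06 ± 0.06 (log2, SE). The Sult1b1 SD was 0.04 in control and 0.12 in heme mice, the controls being the tightest of any of the 9 genes. Sult1d1, a sulfotransferase of catecholamines and other phenols, ran from 12.72 through 12.92 to 13.29 in control and from 12.74 through 12.98 to 13.27 in heme mice (1448973_at). The Sult1d1 difference was 0.02 ± 0.09, and -0.05 ± 0.12 on its other probe set. With the smooth muscle covariate it was -0.18.

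Sult2b1, which sulfates cholesterol and other sterols, was the one member with higher values. It ran from 7.16 through 7.59 to 7.74 in control and from 8.32 through 8.70 to 9.68 in heme mice (1417335_at). All heme mice lay above all controls, by at least 0.58. The Sult2b1 difference was 1.29 ± 0.17 (log2, SE), or 2.45-fold higher. Heme mouse 9, lowest for Sult1a1 and Sult1c2, was the highest for Sult2b1, and without it the difference was 1.19.

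**Figure D2:**
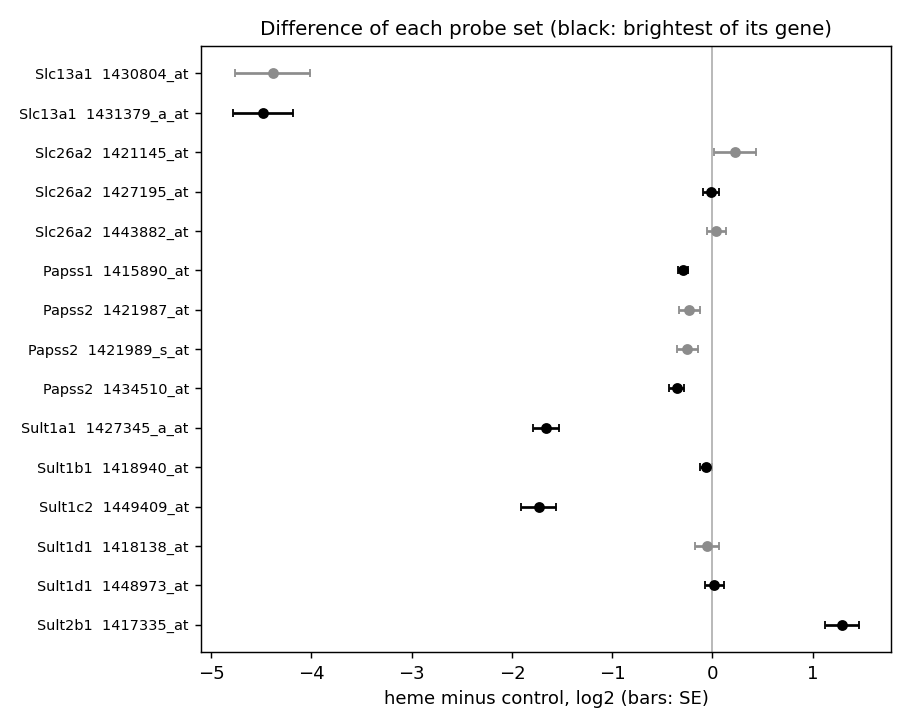
Heme minus control difference (log2, x axis) of the 15 probe sets that lay over the floor on at least 6 arrays, with SE bars. Black points are the brightest probe set of a gene and grey points its others. The brightest Slc13a1 probe set lies at -4.48, while the other, under the floor in all heme mice, has only a bound and its point is set against background. The 3 of Papss2 lie between -0.36 and -0.23 and the 3 of Slc26a2 between -0.01 and 0.23.

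Read with limma at an adjusted p under 0.05, 6 of the 9 genes were called, where 53.6% of all 9257 tested genes were called. Of the members 5 were called lower, against 26.4% of all tested genes, and 1 higher, against 27.2%. All 9 passed the floor on at least 6 arrays. The groups did not overlap for 5 lower genes, against 8.93% of all tested genes in that direction, and for 1 higher gene, against 11.2%. The median difference of the 9 was -0.30, beside -0.01 over all tested genes. These genes were chosen on this contrast, so nothing is read from those counts. In all 28 other settings the 6 stayed called on the probe set or mean that stood for the gene and the other 3 (Slc26a2, Sult1b1 and Sult1d1) were not. Those settings reuse the mice on which the genes were chosen, so this too is a description.

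Differences between mice of the same group were not used to choose the genes. Each value was centred on its group mean, and all 36 pairs of genes were compared over the 15 mice by permutation within groups (100000 resamples, two-sided, Benjamini-Hochberg over the pairs). Sult1a1 and Sult1c2 rose and fell together between mice. Pearson's r was 0.86 (permutation p = 4.00e-05, adjusted p = 0.00144) and Spearman's rho 0.88 (permutation p = 2.30e-04, adjusted p = 0.00828). Within controls r was 0.78 (n = 6) and within heme mice 0.88 (n = 9). Without heme mice 6 and 9, the farthest from the median of Sult1a1, r was 0.79, and without control mice 2 and 4 and heme mouse 6 it was 0.80.

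Sult2b1 ran against Sult1c2. Spearman's rho was -0.78 (permutation p = 0.00237, adjusted p = 0.0427) while Pearson's r was -0.65 (permutation p = 0.0164, adjusted p = 0.196), so the call held by rank alone. It was -0.41 within controls and -0.71 within heme mice, and -0.65 without heme mouse 6 and control mouse 2, the farthest from the median of Sult1c2. Sult2b1 and Sult1a1 gave r = -0.60 (permutation p = 0.0571, adjusted p = 0.289), which did not pass. It was -0.25 without heme mice 6 and 9 and -0.68 without control mice 2 and 4 and heme mouse 6. Sult1d1 and Sult2b1 gave rho = -0.74 (permutation p = 0.00503, adjusted p = 0.0604). Their r was -0.55 (permutation p = 0.0318, adjusted p = 0.286), and neither value passed. Slc13a1 and Sult1d1 gave r = 0.67 (permutation p = 0.00964, adjusted p = 0.174) and rho = 0.63 (permutation p = 0.0262, adjusted p = 0.157), which did not pass. By Pearson's r 1 of the 36 pairs passed. Slc13a1 and Sult1a1 gave r = 0.90 within the 6 controls but -0.18 within the 9 heme mice, a contrast that was not tested.

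**Figure D3:**
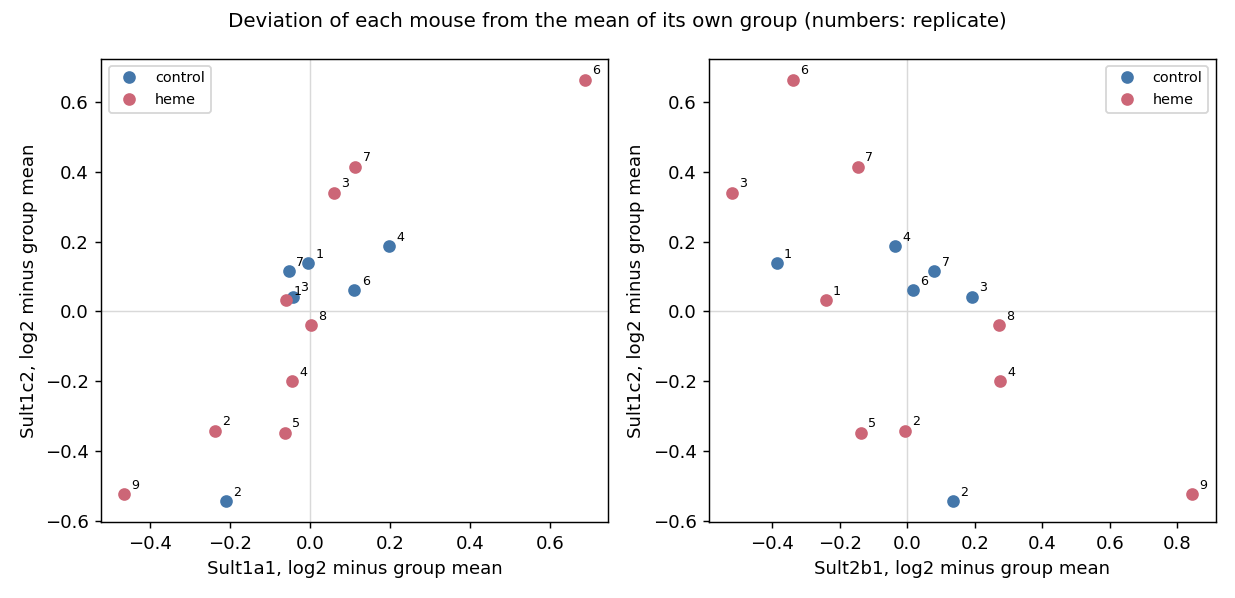
Deviation of each mouse from the mean of its own group, in log2 units, for Sult1a1 against Sult1c2 (left) and Sult2b1 against Sult1c2 (right). Numbers are replicates, blue points control and red points heme mice. On the left the mice follow a rising line from heme mouse 9 to heme mouse 6 (r = 0.86), and on the right a falling one (rho = -0.78).

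The genes most like each member in this within-group pattern were ranked by Pearson's r of the centred values over 15 mice, among 9257 tested genes and as a description. For Sult1a1 they were Ang (r = 0.93), Fhit (0.91), Dio1 (0.90), Vwa5a (0.87) and Tmtc4 (0.86). For Sult1c2 they were Hpd (0.90), Agmo (0.89), Ndfip1 (0.88), Cxxc5 (0.87) and Fhit (0.87), so Fhit stood in both lists. For Slc13a1 they were Akr1c19 (0.93), Rb1 (0.91), Slc35d1 (0.89), Crbn (0.88) and Mfsd9 (0.88). For Papss2 they were Slc4a2 (0.90), Tbx3 (0.89), Lpin2 (0.88), Slc27a4 (0.88) and Cpn1 (0.87). For Sult2b1 they were Tomm40 (0.93), Pglyrp1 (0.89), Sf3a1 (0.88), H13 (0.87) and Dbnl (0.86). For Slc26a2 they were C1qtnf6 (0.90), Apoc2 (0.89), Macc1 (0.83), Cracd (0.82) and Dlat (0.79). Without control mice 2 and 4 and heme mouse 6 the lowest of these values was that of Macc1 with Slc26a2, at 0.54.

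Other genes of sulfate handling were tested in the same comparison. Their lists were drawn up with earlier results of these data known, and the adjusted p given below does not account for that. Of 90 listed genes 74 were on the array with a probe set of their own and 33 passed the floor. Of these 8 rose and 6 fell with heme (limma, adjusted p under 0.05), that is 42.4%, beside the 53.6% of all tested genes, and their median difference was -0.07. On the mean of each gene's probe sets 9 rose and 4 fell of 31. With the smooth muscle mean as a covariate 7 of the 33 were called (21.2%), beside 3504 of all 9257 tested genes (37.9%). The calls of Hs3st3b1 (-0.12), Arsa (0.21), Galns (0.24), Sumf1 (-0.22), Sulf2 (-0.38), Tst (0.06) and Cth (0.15) were lost there, each with its sign kept. That covariate was itself lower with heme (6.08 to 9.76 in control, 4.88 to 6.62 in heme mice). The fit thus separates it poorly from diet, and a part of smooth muscle in these calls was not tested.

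Of the other sulfate carriers, 2 of 7 on the array passed the floor and neither was called. Slc26a3, the chloride and bicarbonate exchanger of surface colonocytes, was at 12.03 ± 0.38 in control and 12.12 ± 0.16 in heme mice (SD), and Slc26a11, a lysosomal sulfate carrier, was at 4.89 ± 0.11 and 4.70 ± 0.18, close to the floor. The Slc26a11 difference of -0.19 ± 0.08 (SE) had an adjusted p of 0.058 (limma). Of 16 listed cytosolic sulfotransferases other than the members, 8 were on the array with a probe set of their own. Of these 0 passed the floor, and their highest single value was 3.76. In these scrapings the 5 Sult members were thus the ones over background among those with such a probe set. The listed genes without one are not covered.

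Of 4 genes that carry PAPS into the Golgi or break down its product, 1 rose, as did 27.2% of all tested genes. Bpnt1, the phosphatase that clears PAP, the product left when PAPS gives up its sulfate, went from 10.75 ± 0.09 to 11.19 ± 0.09 (SD, n = 6 and 9). All 9 heme mice (10.98 to 11.28) lay above all controls (10.67 to 10.92). The Bpnt1 difference was 0.44 ± 0.06 (SE, adjusted p = 1.27e-05, limma), and 0.71 ± 0.09 on its other probe set. Bpnt2, the Golgi phosphatase of the same kind (-0.05 ± 0.08), and the PAPS carriers Slc35b2 (0.16 ± 0.07) and Slc35b3 (-0.07 ± 0.07) were not called. The sign for Slc35b2 turned with the smooth muscle covariate (-0.03).

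Of 10 tested Golgi sulfotransferases, which sulfate mucins, glycolipids, heparan and chondroitin, 1 rose, 2 fell and 7 were not called. Over all tested genes 27.2% rose and 26.4% fell. Gal3st2, which sulfates galactose on glycans, ran from 9.38 through 9.57 to 9.84 in control and from 8.01 through 8.45 to 8.70 in heme mice. All heme mice lay below all controls, and the Gal3st2 difference was -1.17 ± 0.10 (SE, adjusted p = 4.52e-07, limma). Chst11, a chondroitin sulfotransferase, ran from 3.85 through 4.62 to 5.36 in control and from 6.23 through 6.67 to 7.58 in heme mice. Again the groups did not overlap, and Chst11 rose by 2.02 ± 0.24 (adjusted p = 6.32e-06, limma), with 1 control under the floor. With its probe sets averaged, of which 1 lay over the floor, the Chst11 difference was 1.26, and with the floor at a signal of 100 the gene was not tested. The fall of Hs3st3b1 (-0.15 ± 0.06, adjusted p = 0.0348, limma) was small, close to the floor, and lost in 16 of the other settings. A further 22 genes of this list did not pass the floor.

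Of 8 tested sulfatases and their activators, which remove sulfate, 2 rose and 4 fell on the brightest probe set of each gene. Sulf2 and Ids were among the falls. The shares over all tested genes were 27.2% for rises and 26.4% for falls. Arsk, a lysosomal sulfatase, fell by 0.80 ± 0.15 (SE, adjusted p = 4.50e-04, limma), from 5.38 to 6.17 in control to 4.25 to 5.21 in heme mice. Ids, the iduronate sulfatase, fell by 0.25 ± 0.05 on its brightest probe set, but its other probe set over the floor differed by -0.05 ± 0.12 and the mean of its probe sets by 0.0052 (adjusted p = 0.947, limma). Sumf1, which activates sulfatases, fell by 0.31 ± 0.08, a call lost with the replicate block (adjusted p = 0.0538, limma). Its other probe set over the floor differed by -0.18 ± 0.11 and was not called. Galns rose by 0.37 ± 0.08 (0.16 with probe sets averaged) and Arsa, which acts on sulfatides, by 0.24 ± 0.08. For Sulf2, which trims heparan sulfate outside cells, the probe sets disagreed. The brightest fell by 0.51 ± 0.10, while the others over the floor were higher with heme by 1.44 ± 0.20 and 1.47 ± 0.18, so no direction is given for the gene.

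Of 9 tested genes that handle the sulfur of cysteine, sulfide and sulfite, 4 rose and none fell. Beside this, 27.2% of all tested genes rose and 26.4% fell. Suox, the sulfite oxidase that makes sulfate, was not called (0.36 ± 0.17, SE, adjusted p = 0.0912, limma). Got1, the aspartate aminotransferase that also acts on cysteine sulfinate, rose by 0.61 ± 0.07 (SE, adjusted p = 3.32e-06, limma), from 9.69 to 9.87 in control to 10.20 to 10.64 in heme mice. Ethe1, the mitochondrial persulfide dioxygenase, rose by 0.39 ± 0.06 (adjusted p = 1.06e-04, limma), from a range of 12.83 to 13.23 in control to one of 13.30 to 13.58 in heme mice, and by 0.21 with the smooth muscle covariate. All heme mice lay above all controls for both. Cth, which makes cysteine and sulfide, rose by 0.38 ± 0.07 and the thiosulfate sulfurtransferase Tst by 0.16 ± 0.05, and neither passed when the smooth muscle mean was a covariate (adjusted p = 0.176 and 0.494, limma). The call of Tst was also lost with quantile normalization (adjusted p = 0.0525, limma) and with the replicate block (adjusted p = 0.0689, limma).

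**Figure D4:**
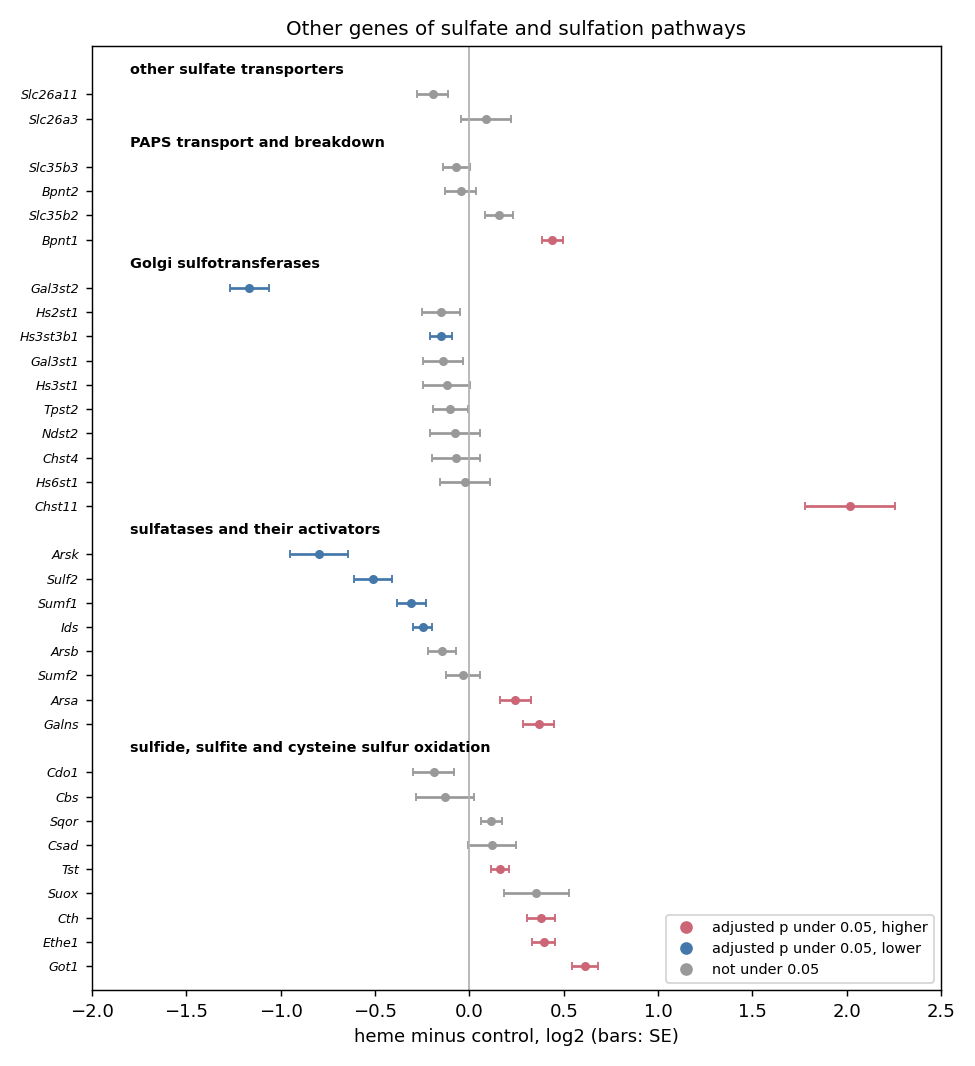
Heme minus control difference (log2, x axis, SE bars) of the 33 tested genes of sulfate and sulfation pathways that are not members, by list. Red points passed as higher and blue as lower (limma, adjusted p under 0.05), grey points did not pass. Chst11 (2.02) and Gal3st2 (-1.17) lie farthest from 0.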

How the data were processed

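RNA of colon scrapings of 15 mice was hybridised to 1 Affymetrix array per mouse. What was deposited is log2 expression, made by the authors with GCRMA 2.22.0 per the submitters' processing notes, a method that uses probe sequence for background, brings arrays to a common scale and combines probes. Other steps and detection calls: not given in the sources used here. Of 45101 probe sets 34958 had 1 symbol, 932 several and 9211 none in the array annotation. Only those with 1 symbol were used. A gene was its probe set with the highest mean, and 9257 genes over a signal of 20 on at least 6 arrays were tested. The groups were compared in R 4.3.3 with limma 3.58.1 (lmFit, eBayes) and Benjamini-Hochberg adjustment over all tested genes. The SE of a gene comes from that fit, and that of a further probe set from the same fit over all probe sets. The procedure was tested on simulated data. Precision is limited by the number of arrays.

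The members and lists were chosen with earlier results of these data known. Members were in the diet fit over all tested genes, but their calls are given as a description, without a p-value. For genes of the lists the adjusted p is that of the fit over all tested genes, and it does not account for that choice. The naming rule took all members, the called genes of each pathway list (up to 3 rises and 3 falls where over 6), and the 5 genes nearest to 6 members. Genes named beside these, among them those of the carrier and PAPS lists, and the permutation p of correlations were chosen after values were seen. Alternatives covered the filter, probe sets, scaling, variance prior, weights, block, covariates and left-out mice.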

Additional observations from a re-analysis of the deposited data

Results flagged for a closer look

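Single mice far from the rest of their group were sought in 70 groups of values (the control or heme mice of a probe set) and found in 7. Chance flags about 1 in 20 groups.

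Control mouse 4, low in distal Hox genes, was the lowest control for Slc26a2, at 12.35 on the brightest probe set (next control 12.71) and at 10.15 on 1421145_at (next 10.49). It was the highest control for Bpnt1, at 10.92 (next 10.75).

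Heme mouse 6 was the highest heme mouse for Sult1a1, at 12.01 (next 11.43), and the lowest for Bpnt1, at 10.98 (next 11.14), in each gene on the side of the controls.

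Control mouse 2, with the highest smooth muscle mean, was the lowest control for Sult1c2, at 9.28 (next 9.87).

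Heme mouse 9 was the highest heme mouse for Slc26a2 on 1421145_at, at 12.06 (next 10.77). It was not far from the other heme mice on the other probe sets of that gene, at 12.66 on 1427195_at and 12.55 on 1443882_at.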

How the results depend on the processing

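Under 28 other settings the count of called members was 6 throughout, in the same mice on which the members were chosen. Of 252 member differences under these settings 249 moved by less than 1 SD between mice. The exceptions were Slc13a1 (-5.12) and Sult1d1 (-0.18) with the smooth muscle covariate and Papss2 (-0.21) with its probe sets averaged. With every probe set tested on its own 7922 of 15717 were called, since more features were tested. Of the other pathway genes 14 were called, and 7 with the smooth muscle covariate, where calls over all tested genes went from 4961 to 3504. With probe sets averaged 2 called pathway genes turned direction, Ids (0.0052) and Sulf2 (0.80), as did the uncalled members Slc26a2 (0.09) and Sult1d1 (-0.02). Leaving out each mouse in turn gave 4546 to 4990 called genes in all, 6 to 6 members and 13 to 15 other pathway genes. The median of all tested genes was -0.01, and median centring gave 2697 higher and 2086 lower genes against 2516 and 2445.

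With the replicate number as a block 3964 genes, 6 members and 11 other pathway genes were called. Same-numbered mice did not deviate together (r from -0.19 to 0.20 over 6 pairs, and 1 of 6 controls matched its own number best). With 6 pairs it cannot be told whether they share more than a number.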
